A study of Mus musculus with 4 samples.

Results

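The transcription factors that drive or restrain the differentiation of effector Treg cells were examined in sorted Treg cells with and without a floxed *Tfrc* gene, which encodes the transferrin receptor TfR1. The group consists of 9 genes chosen by name, *Prdm1*, *Irf4*, *Batf*, *Nfil3*, *Ikzf3*, *Id2*, *Id3*, *Bach2* and *Myb*, among the 47729 Ensembl genes of the count table. They were chosen with earlier results of these data known. All 9 passed the filter on low counts and were among the 12536 genes tested. *Prdm1*, *Irf4* and *Batf* were at lower levels in both TfR1-deficient libraries than in either WT library, as were 18.9% of all tested genes. *Myb* was at a higher level in both, as were 16% of all tested genes. The libraries of the remaining 5 genes overlapped between the genotypes. In edgeR's fit of genotype alone with the filter on low counts, no difference passed the test after adjustment over all genes. *Irf4* passed it without that filter, where 167 of 22368 tested genes were called higher and 95 lower. It also passed with the libraries grouped across replicate numbers, a grouping chosen after seeing the data. That grouping called 150 of the 12536 genes higher and 210 lower. With the other tests, scalings and filters *Irf4* did not pass.

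The data were 4 RNA-seq libraries of Treg cells from age-matched young adult C57BL/6 females. The labels give spleen as the tissue, and the study's own description names spleen and lymph nodes. In the 2 libraries called TfR1-deficient, both alleles of *Tfrc* were floxed (genotype *Tfrc* fl/fl *Foxp3* YFP-Cre/+). In both WT libraries, neither was (*Tfrc* +/+ *Foxp3* YFP-Cre/+). Both genotypes carry the YFP-Cre transgene in 1 of the *Foxp3* alleles, and random X inactivation leaves each mouse with YFP-positive and YFP-negative Treg cells. The CD25+ YFP+ cells that were sorted are those in which *Foxp3* drives Cre. The *Tfrc* fl/fl mice therefore still held Treg cells that made no Cre, and these were not sorted. The labels give replicates 1 and 2 of each genotype and do not say how many mice went into a library, and the study calls them biological replicates. The p-values measure the spread between these libraries.

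The 4 libraries held 10841939 to 17278448 counts. Levels are given as CPM, counts scaled to library size with TMM factors. The count of *Tfrc* did not fall with the label TfR1-deficient (50.8 and 54.1 CPM for the 2 labelled WT against 56.1 and 48.3), and a count per gene does not show which exons were read. TfR1-deficient therefore stands below for the label of a library, and every direction rests on that label. The Treg cell markers *Foxp3*, *Il2ra*, *Ikzf2*, *Cd4* and *Cd3e* were detected in every library, and their summed level was 3711 and 3333 CPM for WT against 2965 and 2616 CPM. *Foxp3* alone was at 194 and 130 CPM against 122 and 114 CPM, without overlap (log2 fold change -0.46, standard error 0.22, adjusted p = 0.911, edgeR). That is the size of the *Batf* difference given below, and the part of the Treg marker level in the members' differences was not tested. The libraries also split across the genotypes. All 16 macrophage genes of a marker list were detected, and they summed to 1180 CPM in WT replicate 1 and to 3546 in TfR1-deficient replicate 2, whereas WT replicate 2 held 98.1 and TfR1-deficient replicate 1 held 71.9. The summed level of 18 proliferation genes followed the same split, at 2385 and 2297 CPM against 1078 and 1143 CPM. Markers of other cells were low, with B cell genes summing to 25.5 to 42.7 CPM, plasma cell genes to 3.44 to 14.9 CPM (*Tnfrsf17* at 0 in all libraries), NK and innate lymphoid genes to 4.31 to 5.84 CPM, dendritic cell genes to 4.18 to 10.7 CPM, CD8 T cell genes to 11.1 to 12.6 CPM and platelet genes to 1.88 to 3.37 CPM. Erythroid genes summed to 16.9 to 278 CPM, and of 5 neutrophil genes all but *Mpo* were at 0.

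Treg cells leave the thymus and circulate mainly in a resting, central state, and antigen and cytokine signals turn some of them into effector Treg cells that enter tissues and make suppressive molecules. BATF, a bZIP protein that pairs with JUN proteins, and IRF4, an interferon regulatory factor induced by T-cell receptor signals, bind DNA together and open the effector program. Blimp-1, encoded by *Prdm1*, acts later and marks effector Treg cells that make IL-10. BACH2 is a bZIP repressor that occupies the same kind of site as BATF and keeps Treg cells in the resting state. ID2 and ID3 are small helix-loop-helix proteins without a DNA-binding region that trap E proteins, and ID3 is typical of resting and ID2 of effector lymphocytes. *Ikzf3* encodes the zinc-finger protein Aiolos, *Nfil3* a bZIP repressor and *Myb* the factor c-Myb, which keeps lymphocyte progenitors and memory-type T cells in a renewable state and has also been linked to effector Treg differentiation, so that it cannot be placed on only 1 side.

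The gene positions given here are those of RefSeq on GRCm38.p6, the assembly of the mm10 build that the submitters' processing notes name (the methods of the paper name mm9). RefSeq promoter windows, from 250 bases before to 50 bases after a transcription start, were found for 8 of the 9 genes, all but *Ikzf3*. They were searched on both strands for words bound by the factors of this group and by HIF. In 3 windows a word for a factor of the group, or for the E proteins that ID2 and ID3 trap, was found. Each of these words was in 1 of the 8 windows. The stretches are shown as matches of letters and do not show that one member acts on another. The capitals mark the word, in the direction of the gene.

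Prdm1, chr10:44458816-44458849, minus strand: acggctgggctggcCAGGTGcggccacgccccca
Bach2, chr4:32417403-32417434, plus strand: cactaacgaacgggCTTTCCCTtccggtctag
Id3, chr4:136143660-136143693, plus strand: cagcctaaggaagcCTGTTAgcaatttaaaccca

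The *Prdm1* stretch lies 101 to 68 bases before a start inside the annotated gene and holds CAGGTG, an E-box preferred by E proteins, which occurs in 20.2% of the 32851 windows of all genes. The *Bach2* stretch ends at the base before a start that also lies inside the annotated gene, and it holds on the opposite strand the word AGNGAAAG of the Blimp-1 motif (8.63% of all windows). The *Id3* stretch holds, also on the opposite strand, TAACNG, a short MYB word (23.3%). The AP-1 word TGACTCA, shared by BATF-JUN and BACH2 (5.2% of all windows), the IRF element of a pair of GAAA words 2 bases apart (3.44%), the NFIL3 word TTANGTAA (2.32%) and the HIF word ACGTG (19.6%) were found in 0 of the 8 windows. A word in such a window is a match of letters and was not tested as a binding site.

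Levels of different genes were compared per kilobase of annotated exon (RPKM, from the CPM and the exon lengths of GENCODE vM1). In WT the order was *Id3* (57.4 ± 15.04 RPKM, SD, n = 2), *Batf* (53.0 ± 7.67), *Id2* (28.8 ± 14.9), *Ikzf3* (15.4 ± 1.38), *Irf4* (9.68 ± 4.72), *Bach2* (7.57 ± 1.26), *Nfil3* (3.98 ± 1.05), *Myb* (3.05 ± 0.248) and *Prdm1* (0.776 ± 0.252). The WT libraries of *Id3* and *Batf* overlapped, as did those of *Irf4* and *Bach2*, so that these neighbours did not differ beyond their spread. *Nfil3* and *Myb* stood side by side in WT replicate 1, at 3.23 RPKM each. In the TfR1-deficient libraries the order of the means was the same for the first 4 genes, though *Id2*, at 9.12 and 38.7 RPKM, overlapped *Batf* (36.6 and 40.6), *Ikzf3* and *Bach2*. They were followed by *Bach2* (8.79 ± 1.79 RPKM, SD, n = 2), *Myb* (4.98 ± 1.16) and *Irf4* (4.93 ± 0.588), the last 2 overlapping, then *Nfil3* (3.17 ± 1.32) and *Prdm1* (0.388 ± 0.0598). *Prdm1* was thus the lowest of the 9 in both genotypes. *Bach2* was above *Irf4* in both TfR1-deficient libraries and also in WT replicate 2 (8.46 against 6.34 RPKM). Only in WT replicate 1 was *Bach2* below *Irf4* (6.68 against 13.0 RPKM).

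**Figure D1:**
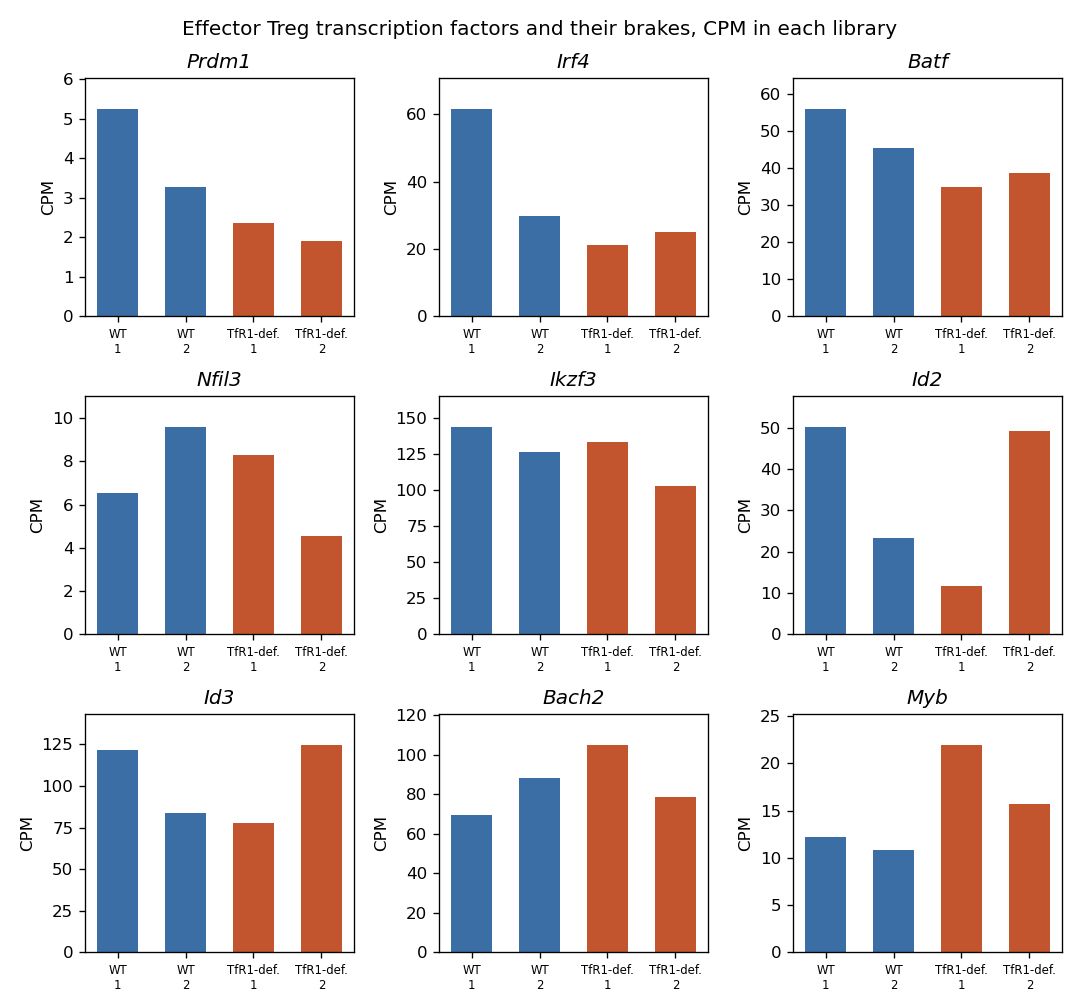
Level of each of the 9 genes in each library, as bars of CPM on axes that start at 0 (blue WT, orange TfR1-deficient, replicate numbers below). *Prdm1*, *Irf4* and *Batf* are lower and *Myb* is higher in both TfR1-deficient libraries than in both WT libraries, while *Id2* and *Id3* are highest in WT replicate 1 and TfR1-deficient replicate 2.

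The first comparison concerned the factors that build the effector program. *Prdm1* (ENSMUSG00000038151, chromosome 10, 44437174 to 44528558) was counted at 5.24 and 3.28 CPM for the 2 labelled WT, against 2.36 and 1.90 CPM for those labelled TfR1-deficient. These levels rest on 64, 35, 41 and 26 counts, and the exact Poisson 95% intervals of WT replicate 2 (2.29 to 4.56 CPM) and of TfR1-deficient replicate 1 (1.70 to 3.21 CPM), which cover counting error only, overlap. Both TfR1-deficient libraries lay below both WT libraries, at a fold of 0.501 (log2 fold change -0.996, standard error 0.44). The 95% interval of the log2 fold change ran from -2.13 to 0.14, and the adjusted p was 0.911 (edgeR's quasi-likelihood test, Benjamini-Hochberg, unadjusted p = 0.073).

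*Irf4* (ENSMUSG00000021356, chromosome 13, 30749233 to 30766981) was at 61.4 and 29.9 CPM for the 2 labelled WT and at 21.3 and 25.2 CPM for those labelled TfR1-deficient. WT replicate 1 stood about as far above WT replicate 2 as the genotypes stood apart, and the lower WT library was still above both TfR1-deficient ones. The log2 fold change was -0.98 (standard error 0.37, 95% interval -1.92 to -0.03), with an adjusted p of 0.911 in edgeR's test and an unadjusted p of 0.045. Without a filter on low counts the same test gave an adjusted p of 0.021, and in that fit 167 of 22368 genes were called higher and 95 lower. With the filter and a crossed replicate block, chosen after seeing the data, the adjusted p was 0.027 at a log2 fold change of -0.90. That block set WT replicate 1 with TfR1-deficient replicate 2, and WT replicate 2 with TfR1-deficient replicate 1. It called 150 of the 12536 tested genes higher and 210 lower. The size of the *Irf4* difference rested on WT replicate 1: without it the log2 fold change was -0.35, and without WT replicate 2 it was -1.40. In a bulk library, fewer effector cells and less RNA per cell cannot be told apart, for this gene as for the others.

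*Batf* (ENSMUSG00000034266, chromosome 12, 85686720 to 85709087) had the smallest standard error of the 9, at 55.8 and 45.5 CPM for the 2 labelled WT and 35.0 and 38.8 CPM for those labelled TfR1-deficient. The groups did not overlap. Its log2 fold change of -0.46 (standard error 0.18, 95% interval -0.92 to 0.00, adjusted p = 0.911, edgeR) is under the minimum of 0.5 used for a call.

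*Nfil3* and *Ikzf3* did not separate the genotypes. *Nfil3* (ENSMUSG00000056749, chromosome 13, 52967209 to 52982878) was at 6.55 and 9.56 CPM for the 2 labelled WT and 8.30 and 4.53 CPM for those labelled TfR1-deficient, so that the highest and the next highest value came from different genotypes. Its log2 fold change was -0.33 (standard error 0.43, interval -1.43 to 0.78, adjusted p = 0.957, edgeR). *Ikzf3* (ENSMUSG00000018168, chromosome 11, 98464610 to 98546031), the most highly counted of the 9, was at 143 and 126 CPM for the 2 labelled WT against 133 and 103 CPM. Its log2 fold change of -0.19 (standard error 0.18, interval -0.66 to 0.27, adjusted p = 0.954, edgeR) was about the size of that error.

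The second comparison concerned the 2 Id genes. *Id2* (ENSMUSG00000020644, chromosome 12, 25093799 to 25096092) was at 50.01 and 23.2 CPM for the 2 labelled WT and at 11.6 and 49.1 CPM for those labelled TfR1-deficient. The 2 high libraries were WT replicate 1 and TfR1-deficient replicate 2, those with the high macrophage and proliferation gene levels, and the part of these in the *Id2* level was not tested. The log2 fold change was -0.28 with the widest interval of the 9 (standard error 0.73, interval -2.13 to 1.58, adjusted p = 0.988, edgeR). It was -1.66 without TfR1-deficient replicate 2 and 0.42 without TfR1-deficient replicate 1, so no direction can be given for this gene. *Id3* (ENSMUSG00000007872, chromosome 4, 136143822 to 136145392) was high in the same 2 libraries and low in the other 2, with a smaller range, at 122 and 83.8 CPM for the 2 labelled WT and 78.0 and 124 CPM for those labelled TfR1-deficient. The fitted log2 fold change was -0.02 (standard error 0.30, interval -0.78 to 0.73, adjusted p = 0.998, edgeR), and its sign turned with the scaling, at 0.01 with total library size.

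**Figure D2:**
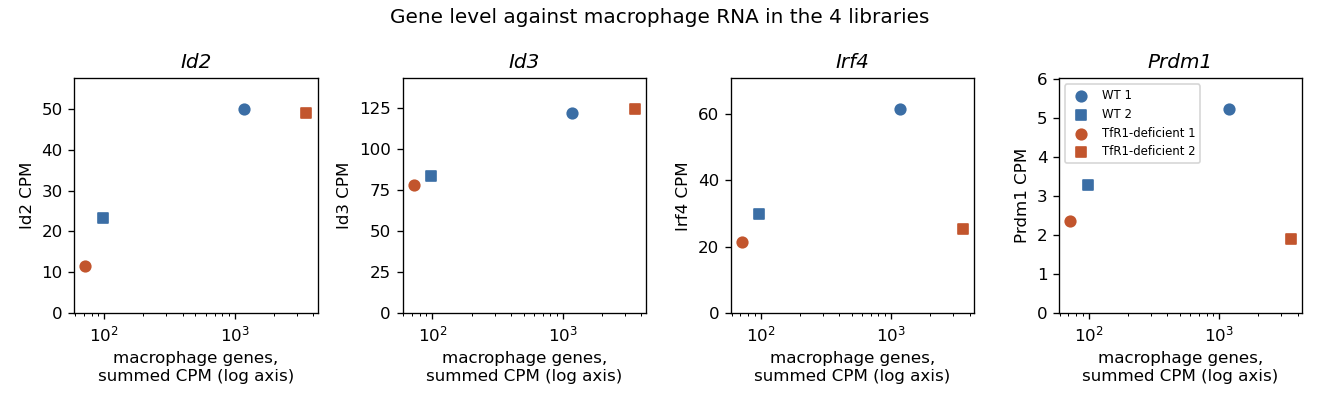
Level in CPM (vertical axis, from 0) of *Id2*, *Id3*, *Irf4* and *Prdm1* against the summed CPM of 16 macrophage genes (horizontal axis, log scale) in the 4 libraries (blue WT, orange TfR1-deficient, circle replicate 1, square replicate 2). *Id2* and *Id3* are high in the 2 libraries with macrophage sums of 1180 and 3546 CPM, whereas *Irf4* and *Prdm1* are high in the first of these and low in the second.

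The third comparison concerned *Bach2* and *Myb*. *Bach2* (ENSMUSG00000040270, chromosome 4, 32238413 to 32586109) was at 69.7 and 88.2 CPM for the 2 labelled WT and at 105 and 78.5 CPM for those labelled TfR1-deficient, with the highest value in a TfR1-deficient library, the lowest in a WT library and the middle ones crossed. The log2 fold change was 0.22 (standard error 0.21, interval -0.32 to 0.76, adjusted p = 0.955, edgeR), and it rested on TfR1-deficient replicate 1, without which it was -0.01. *Myb* (ENSMUSG00000019982, chromosome 10, 21124930 to 21160984) was at 12.2 and 10.9 CPM for the 2 labelled WT and at 21.9 and 15.7 CPM for those labelled TfR1-deficient, the only member with both TfR1-deficient libraries above both WT libraries. Its log2 fold change was 0.70 (standard error 0.28, interval -0.01 to 1.42, adjusted p = 0.911, edgeR, unadjusted p = 0.052). The WT replicates of *Myb* were close, and most of its spread lay between the TfR1-deficient ones. It was 0.44 without TfR1-deficient replicate 1 and 0.92 without TfR1-deficient replicate 2.

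**Figure D3:**
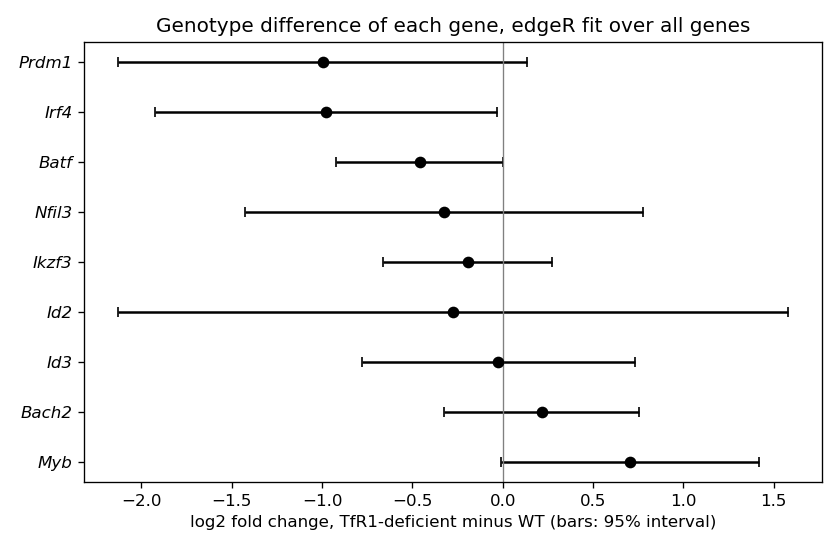
Log2 fold change of each of the 9 genes, TfR1-deficient minus WT (points), with its 95% interval (bars) from edgeR's fit over all genes. The interval of *Irf4* ends just below 0, those of *Batf* and *Myb* reach 0 at their ends, and those of the other 6 extend further across 0.

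Of the 9 genes, 3 were lower in both TfR1-deficient libraries than in both WT libraries and 1 was higher in both, where 18.9% and 16% of all tested genes were. For a call, an adjusted p under 0.05 and a log2 fold change of 0.5 or more in size were required, and edgeR called 0 of the 9 lower and 0 higher, as it called 0% of all tested genes in either direction. At the unadjusted p and the same minimum change, which is the threshold the study used with DESeq2, edgeR called *Irf4* lower (2.48% of all tested genes) and 0 of the 9 higher (1.6%). DESeq2's Wald test at that threshold called *Irf4* lower (2.45%) and *Myb* higher (1.64%), and at its adjusted p it called 0 of the 9 in either direction, with 0.263% of all tested genes lower and 0.0479% higher. Across the 9 genes the median log2 fold change stood at -0.28, against 0.01 over all tested genes, whose quartiles were -0.20 and 0.23. That median is the value of *Id2*, for which no direction can be given. The 9 also mix factors that drive the effector state with factors that restrain it, so the median does not describe a shift of the group.

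Because macrophage and proliferation transcripts split the libraries across the genotypes, the 2 libraries with little of them and the 2 with more were also set side by side, 1 against 1 and with no test. The first pair was close in macrophage RNA (98.1 and 71.9 CPM), whereas in the second the TfR1-deficient library held more of it (3546 against 1180 CPM). From WT replicate 2 to TfR1-deficient replicate 1, the pair with little macrophage RNA, log2 CPM was different by -0.45 for *Prdm1*, -0.49 for *Irf4*, -0.38 for *Batf*, -0.20 for *Nfil3* and -0.996 for *Id2*, and by 0.25 for *Bach2* and 1.0003 for *Myb*. From WT replicate 1 to TfR1-deficient replicate 2, the pair with more of it, the values were -1.40 for *Prdm1*, -1.28 for *Irf4*, -0.52 for *Batf*, -0.52 for *Nfil3* and -0.03 for *Id2*, and 0.17 for *Bach2* and 0.36 for *Myb*. The sign was the same in both pairs for these 7 genes, 5 lower and 2 higher, where 31% of all tested genes were lower and 31.8% higher in both. For *Prdm1*, *Irf4*, *Batf* and *Myb* this was fixed in advance, because their genotypes did not overlap and any such pairing gives the same sign. *Ikzf3* (0.08 and -0.48) and *Id3* (-0.10 and 0.03) differed in sign between the pairs. The *Id2* difference came almost wholly from the pair with little macrophage RNA, and those of *Prdm1* and *Irf4* were larger in the other pair.

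**Figure D4:**
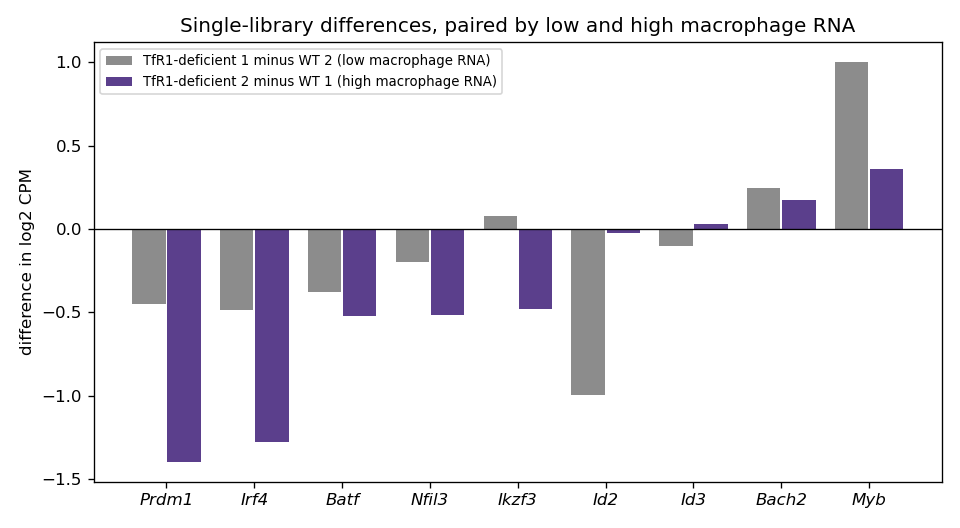
Difference in log2 CPM of each gene between single libraries, TfR1-deficient replicate 1 minus WT replicate 2, both with little macrophage RNA (grey), and TfR1-deficient replicate 2 minus WT replicate 1, with macrophage sums of 3546 and 1180 CPM (purple). *Prdm1*, *Irf4*, *Batf* and *Nfil3* are below 0 and *Bach2* and *Myb* above 0 in both pairs.

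The balance between effector factors and their brakes was measured within each library as the log2 ratio of the counts of 2 genes, which does not depend on how libraries are scaled. The ratio of *Prdm1* to *Bach2* was -3.71 and -4.71 for the 2 labelled WT and -5.44 and -5.32 for those labelled TfR1-deficient. It was lower in both TfR1-deficient libraries by a mean of -1.17 (a fold of 0.446), from -4.21 ± 0.705 to -5.38 ± 0.0854 (SD, 2 libraries each). The ratio of *Batf* to *Bach2* was -0.32 and -0.95 for the 2 labelled WT and -1.58 and -1.02 for those labelled TfR1-deficient, a mean difference of -0.66 (a fold of 0.632). Here WT replicate 2 and TfR1-deficient replicate 2 were close, though the groups did not overlap. An exact two-sided permutation test gave p = 0.333 for each of these ratios, the smallest that 2 libraries against 2 allow. The ratio of *Id2* to *Id3* was -1.28 and -1.85 for the 2 labelled WT and -2.75 and -1.34 for those labelled TfR1-deficient, so that the groups overlapped (mean difference -0.48, exact permutation p = 0.667). Over these 3 ratios no p can pass a threshold of 0.05 in this design.

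**Figure D5:**
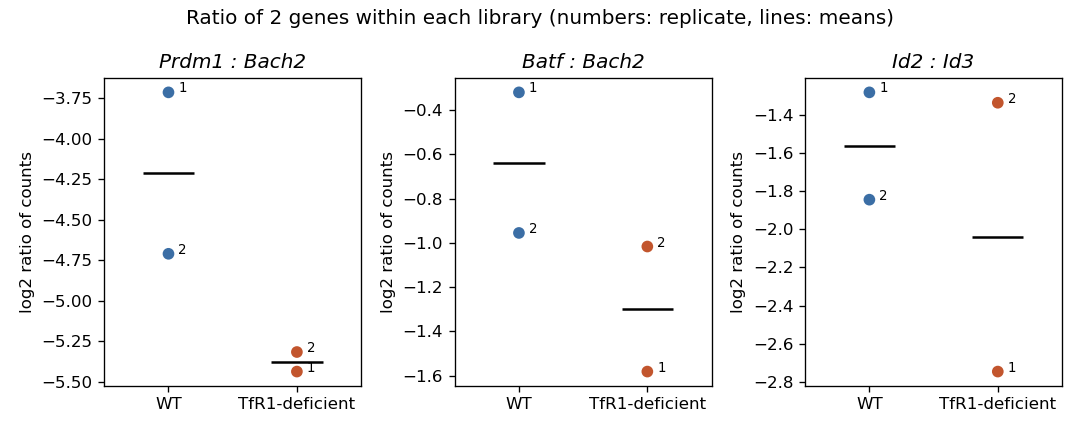
Log2 ratio of the counts of 2 genes within each library (points, with the replicate number beside them) and the mean of each genotype (lines). *Prdm1* to *Bach2* and *Batf* to *Bach2* are lower in both TfR1-deficient libraries, and *Id2* to *Id3* overlaps between the genotypes.

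The genes whose profile over the 4 libraries was nearest to a member were found by the root mean square difference of mean-centred log2 CPM over all tested genes with a symbol. For *Prdm1* they were *Tnfrsf13c* (0.034), *Ccdc157* (0.038) and *9330160F10Rik* (0.071), and for *Bach2* they were *2410018M08Rik* (0.0097), *Dip2b* (0.014) and *Dnajc13* (0.015). With 4 libraries, many genes lie close to any profile, so these values are descriptions only.

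The partners of these factors were read from the same fit, in which 18.9% of all tested genes were below WT in both TfR1-deficient libraries, 16% were above, and edgeR called 2.48% lower and 1.6% higher at the unadjusted p. Of 19 bZIP and IRF partners 15 were tested, with a median log2 fold change of -0.13. Of these, 3 were below WT in both TfR1-deficient libraries, a share near that of all genes, and 1 was above. *Mafk*, which encodes a small Maf protein that pairs with BACH proteins, was at 51.2 and 54.6 CPM for the 2 labelled WT against 34.3 and 33.4 CPM (log2 fold change -0.64, standard error 0.15, adjusted p = 0.911, edgeR) and was the only 1 of the 15 called at the unadjusted p. *Junb*, which encodes a protein among the JUN partners of BATF, had a log2 fold change of -0.27 and *Irf2* of -0.20. Of the E proteins and other Id and Myb family genes 5 of 9 were tested, with a median of 0.44, and 3 of the 5 were above WT in both TfR1-deficient libraries. *Tcf3*, which encodes the E protein E2A, was at 30.6 and 33.8 CPM for the 2 labelled WT against 47.4 and 40.2 CPM (log2 fold change 0.44), *Tcf12* at 36.7 and 38.8 against 54.9 and 43.9 CPM (0.39), and *Tcf4* had a log2 fold change of 0.68 with a standard error of 0.40. None of the 5 was called at either p (0 of 5, edgeR). Of the Ikaros family 4 of 4 were tested (median -0.26). *Ikzf4*, which encodes Eos, a partner of Foxp3, was at 120 and 120 CPM for the 2 labelled WT against 86.4 and 53.7 CPM (log2 fold change -0.78, standard error 0.25) and was called at the unadjusted p, while *Ikzf2* (-0.26) and *Ikzf1* (0.11) were not.

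Of 23 other effector Treg transcription factors, all tested, 9 were below WT in both TfR1-deficient libraries (18.9% of all tested genes), 0 were above (16%), and the median log2 fold change was -0.16. edgeR called 4 of them lower at the unadjusted p (2.48% of all tested genes) and 0 at the adjusted p. The list holds *Ahr*, which the study picked out as strongly lowered in these libraries, and *Maf*, which it reported lower from other data. The direction of this list is therefore not independent evidence. The 3 with the lowest p were *Bhlhe40*, a repressor that limits *Il10* in helper T cells (log2 fold change -1.49, standard error 0.29), *Ahr*, the aryl hydrocarbon receptor (-1.60, standard error 0.33), and *Maf*, a bZIP activator of *Il10* (-0.97, standard error 0.20). Of the 14 tested factors of central Treg cells and quiescence, 3 were above and 2 below WT in both libraries (median 0.12). *Satb1*, a chromatin organizer, was called higher at the unadjusted p (log2 fold change 0.52, standard error 0.13), whereas *Zbtb7b*, which encodes ThPOK, was at -0.43 and *Bcl11b* at 0.27.

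The products of the effector program were read in the same way. Of 27 tested effector Treg products, 19 were below WT in both TfR1-deficient libraries (18.9% of all tested genes), 13 were called lower by edgeR at the unadjusted p (2.48%), 0 were above (16%) and 0 were called at the adjusted p (median log2 fold change -0.73). This list overlaps the genes that the study chose on these libraries, so its direction is not independent evidence. The 3 with the lowest p were *Fgl2*, a secreted suppressive mediator (-1.72, standard error 0.24), *Ctla4*, the inhibitory receptor (-0.81, standard error 0.13), and *Itgae*, the alpha chain of CD103 (-1.87, standard error 0.32). Of the 14 tested genes listed as products of central Treg cells, 4 were above and 3 below WT in both libraries (median -0.03). *Ltb* (0.59) was called higher and *Cxcr5* (-1.08), which is not particular to central Treg cells, lower at the unadjusted p. *Bcl2* stood at 0.42. The difference between the factor and product lists was not tested. For the general T cell genes 16 of 16 were tested (median -0.12), with 7 below WT in both libraries and *Cd3e* at -0.43, *Cd4* at -0.44 and *Cd5* at -0.28. Of the 18 proliferation genes 0 separated the genotypes (median 0.07), with *Mcm2* at 0.20, *Kif11* at -0.52 and *Ccna2* at 0.40.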

How the data were processed

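The files hold 4 libraries of sorted Treg cells, 2 per genotype. The deposited values are raw read counts for each Ensembl gene, made by the authors without normalization. The submitters' processing notes name Trim Galore 0.6.7, STAR 2.7.9a, featureCounts and mm10, and the methods of the paper name mm9. The annotation release, the strand setting and the treatment of reads with several matches are not given in the sources used here. Symbols were found for 32799 of the 47729 identifiers.

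Genes were filtered with filterByExpr and scaled with TMM factors. edgeR 4.0.16 (R 4.3.3) fitted genotype alone, and its quasi-likelihood p-values were adjusted by Benjamini-Hochberg over all 12536 genes. A call needed an adjusted (or, where stated, unadjusted) p under 0.05 and a log2 fold change of 0.5 or more in size. A standard error is the log2 fold change over the root of the F statistic, 95% intervals use the total degrees of freedom of the fit, and log2 CPM used a prior count of 2. Ratios used a pseudocount of 1. DESeq2 1.42.0 was an alternative. The fits were also run on simulated counts that lacked the split of the libraries by macrophage and proliferation genes. That run cannot show how the fits perform with such a split. Named genes were the 9 members, *Tfrc*, *Foxp3*, the 3 genes with the lowest p of each pathway list, and the 3 nearest profiles of *Prdm1* and *Bach2*. The members, lists and tests were chosen with earlier results of these data known. The member with the lowest counts was *Prdm1*, with 26 to 64 a library.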

Additional observations from a re-analysis of the deposited data

How the results depend on the processing

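Over all tested genes, edgeR called 0 higher and 0 lower at the adjusted p, and 200 and 311 without adjustment. DESeq2's Wald test gave 6 and 33 at the adjusted p. Without a count filter edgeR tested 22368 genes and gave 167 and 95, with 650 higher at the unadjusted p, and the cause was not tested. Of the 9 members, *Irf4* was called lower at the adjusted p without a count filter (adjusted p = 0.021, log2 fold change -0.96), 1 of 9 against 0, and over the other tests, scalings, filters and the uncrossed block its adjusted p ran from 0.674 (DESeq2) to 0.9999. At the unadjusted p, 1 member was lower (*Irf4*) and 0 higher; 0 were lower with total library size, with T cell genes as library size and with the replicate block, and 1 (*Myb*) was higher with DESeq2's test or size factors, total library size, no count filter or at least 10 counts in every library. With T cell genes as library size, 2 members instead of 1 were above WT in both libraries. Libraries of the same number did not deviate together (correlation -0.61), and the numbers were not taken as pairs. Because each genotype has 2 libraries, the crossed correlation is the opposite value, 0.61, by construction. It therefore cannot show whether equal numbers share an experiment. With the replicate block, 70 genes were higher and 141 lower without adjustment, and it changed no call of a member at the adjusted p. edgeR with a crossed replicate block, chosen after seeing the data, called 150 of the 12536 genes higher and 210 lower at the adjusted p (596 and 519 without adjustment). Of the 9 members it called 1 lower at the adjusted p (*Irf4*, adjusted p = 0.027) and 1 higher at the unadjusted p (*Myb*).

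In fits with 1 library left out, the lone library of a genotype is assumed to vary like the others. At the adjusted p they gave 0 genes, and at the unadjusted p 151 to 268 higher and 140 (without WT replicate 1) to 372 lower ones, with 0 to 2 members lower (*Irf4* and *Id2* without TfR1-deficient replicate 2) and 0 to 1 higher. The log2 fold change then ran from -1.29 to -0.61 for *Prdm1*, -1.40 to -0.35 for *Irf4*, -0.60 to -0.29 for *Batf*, 0.44 to 0.92 for *Myb* and -0.40 to -0.02 for *Ikzf3*, and it changed sign for *Bach2* (-0.008 to 0.41), *Id2* (-1.66 to 0.42), *Id3* (-0.40 to 0.29) and *Nfil3* (-0.83 to 0.041). *Id3* was also above 0 with at least 10 counts in every library (0.0017), T cell genes as library size (0.0081), total library size (0.014) and from WT replicate 1 to TfR1-deficient replicate 2 (0.029), and *Ikzf3* from WT replicate 2 to TfR1-deficient replicate 1 (0.077). The ratio of *Prdm1* to *Bach2* ran from -1.66 to -0.67, that of *Batf* to *Bach2* from -0.98 to -0.34 and that of *Id2* to *Id3* from -1.18 to 0.23, the last without TfR1-deficient replicate 1.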
